A study of Mus musculus with 12 samples.

Results

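The normal mouse cochlea was described from the 6 wild-type libraries among the 12 libraries of the study, which were selected by their genotype label. The mice were wild type for Dusp1, the gene deleted in the other 6 libraries, and of the mixed strain 129S2/SvPas:C57BL/6. Libraries E1, E3 and E4 came from mice of 5 months and F1, F10 and F12 from mice of 8 months, without any treatment in the labels. The cochlea was separated from the vestibule, RNA with integrity numbers from 9.2 to 9.7 was purified for polyadenylated transcripts, and 50-base reads were placed on the mm9 mouse genome. The 6 libraries were taken as a single description of the tissue, and the ages were not compared. No source used here says whether a library came from 1 animal or from pooled animals, or which substrain of C57BL/6 entered the cross, and the labels give no sex. Of 16 markers fixed for hair cells, tectorial membrane, stria vascularis, spiral ligament and myelinating glia, 15 had a mean of at least 1 FPKM. Of all genes, 62.9% did so. The 15 ran from Slc26a5 at 1.97 FPKM to Coch at 2611 FPKM. The exception among the markers was Oc90, which is known from the otoconia of the vestibule.

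The cochlea turns sound into nerve impulses along the organ of Corti, where inner hair cells release glutamate onto spiral ganglion neurons and outer hair cells amplify the vibration. Supporting cells surround both, the acellular tectorial membrane covers them, and Schwann cells and satellite glia wrap the neurons. In the lateral wall, fibrocytes of the spiral ligament and the marginal, intermediate and basal cells of the stria vascularis return potassium to the endolymph and keep the voltage that drives the hair cells. The whole is enclosed in bone with marrow, vessels and resident macrophages.

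Levels are given as FPKM, fragments scaled to the length of the transcript and to the size of the library, so genes can be ordered per length. Values after ± are SDs over the 6 libraries. The table listed 23951 genes, of which 3901 were at 0 in all 6 libraries. Summed FPKM ran from 501204 to 549210 per library, and the reads assigned were estimated from the step between low values at 19.2 to 23.5 times 1000000 per library. At that depth a mean of at least 1 FPKM was reached by 15073 genes (62.9%), and 14029 reached it in each library. Mean levels of 100 FPKM or more were found for 781 genes (3.26%) and of 1000 FPKM or more for 34.

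Transcript abundance in the cochlea was concentrated in few genes. The gene of highest level, Ptgds, held 3.91% ± 0.50 (SD, n = 6 libraries) of summed FPKM, the first 10 genes held 9.53% ± 0.607, the first 100 held 25.1% ± 0.948 and the first 1000 held 56.1% ± 1.28. The 664 most abundant genes together made up 50% of the summed level. From the first gene to the gene at rank 1000, Tmed9 with 81.6 ± 5.35 FPKM, the mean level fell 252.2-fold. The libraries named largely the same leading genes: 7 genes were among the first 10 in all 6 libraries and 13 in any, and 23 were among the first 30 in all 6 and 41 in any.

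**Figure D1:**
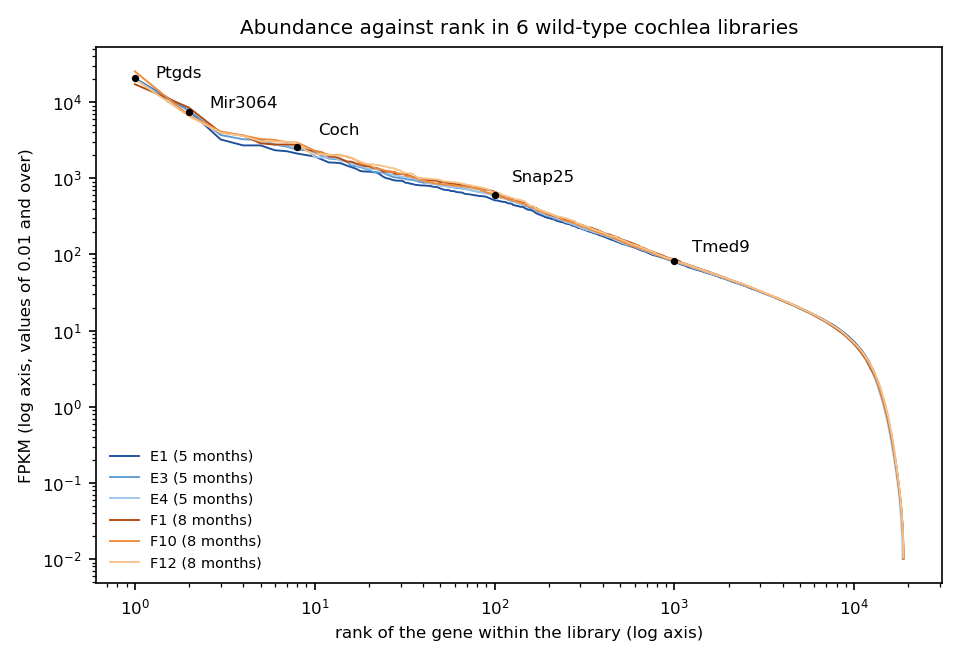
FPKM of each gene (log axis) against its rank within the library (log axis), a line for each of the 6 libraries, with black points at the mean of 5 named genes. The 6 lines run close together, from Ptgds at a mean of 20588 FPKM through Snap25 at rank 100 with 603.8 FPKM to Tmed9 at rank 1000 with 81.6 FPKM.

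Ptgds, at chr2:25322232-25325269 on the minus strand of mm9, encodes lipocalin-type prostaglandin D synthase, a secreted enzyme that also carries lipids. Its level was 20651, 20086 and 20254 FPKM in E1, E3 and E4, and 17198, 25340 and 19999 FPKM in F1, F10 and F12. It stood first in 6 of 6 libraries, and F1 was the lowest and F10 the highest. The mean of 20588 ± 2638 FPKM was 5.475 times that of Fth1, the next gene of ordinary length, and 7.884 times that of Coch. As the tissue was measured in bulk, more cells of a type and more RNA per cell cannot be told apart for this or any later gene.

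Secreted proteins and iron storage followed. Fth1, the heavy chain of ferritin (chr19:10055090-10059601, plus strand), had a mean of 3760 ± 405 FPKM with a lowest value of 3233 in E1 and a highest of 4113 in F10, and Ftl1, the light chain, had 1549 ± 192 FPKM. Apod, another secreted lipocalin (chr16:31296278-31314682, minus strand), had 3364 ± 454 FPKM, between 2703 in E1 and 3700 in E3. Apoe, the apolipoprotein that carries lipids between cells, had 1685 ± 244 FPKM, and F10 with 2151 FPKM lay above the other libraries at 1439 to 1694. Cst3, a secreted inhibitor of cysteine proteases, had 1320 ± 68.4 FPKM, and Itm2b, a widely expressed membrane protein, had 1206 ± 39.1 FPKM, the narrowest relative spread of the first 30 genes at 3.24%.

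The genes of the spiral ligament and of bone stood among the first 10. Coch, cochlin of the ligament and limbus matrix (chr12:52694328-52706760, plus strand), had 2112, 2766 and 2964 FPKM in E1, E3 and E4 and 2777, 2983 and 2067 FPKM in F1, F10 and F12. Otos, otospiralin of the fibrocytes (chr1:94540795-94545418, minus strand), had 1474, 1970 and 2471 FPKM in E1, E3 and E4 and 2183, 2295 and 1527 FPKM in F1, F10 and F12. Both genes were lowest in the same libraries, E1 and F12, and the other 4 lay above them without overlap. Spp1, osteopontin of bone and other tissues (chr5:104864130-104870072, plus strand), had 2338 ± 191 FPKM between 2016 and 2596.

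Bpifa1, a secreted protein of airway and middle ear epithelium (chr2:153968616-153974953, plus strand), had the fifth highest mean, 2791 ± 591 FPKM. It was 2703, 3196 and 1664 FPKM in E1, E3 and E4 and 2877, 3283 and 3021 FPKM in F1, F10 and F12, so that E4 stood below the other 5. It made up 82.9% of the summed level of the 19 genes listed for ciliated and middle ear epithelium, and the other 18 summed to 227 FPKM in E4, 266 to 337 FPKM in E1, F1, F10 and F12, and 2026 FPKM in E3. How much of that level came from cells outside the cochlea was not tested.

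Of the remaining leading genes, S100b of Schwann and other glial cells (chr10:75716581-75724064, plus strand) had 1836 ± 283 FPKM, S100a1 had 1320 ± 170 FPKM and the myelin gene Mbp had 1093 ± 168 FPKM. Eef1a1, the elongation factor that brings transfer RNA to the ribosome, had 1882 ± 100 FPKM, and the cyclophilin Ppia had 1343 ± 89.9 FPKM. The globin Hbb-b1 had 1933, 1024 and 684 FPKM in E1, E3 and E4 and 1145, 1161 and 3589 FPKM in F1, F10 and F12. Its spread of 66.8% was the widest of the first 30 genes, with F12 above the rest, and its exons overlap those of Hbb-bs, so the level of each copy is uncertain. The same holds for Rps27, whose exons overlap Rps27rt.

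Below the leading genes the order of single genes was not resolved. Of 29 neighbouring pairs among the first 30 genes, 27 differed in mean by less than the larger of their SDs, and only 3 pairs kept their order in all 6 libraries: Ptgds above Mir3064, Mir3064 above Fth1, and Ftl1 above Rpl38.

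**Figure D2:**
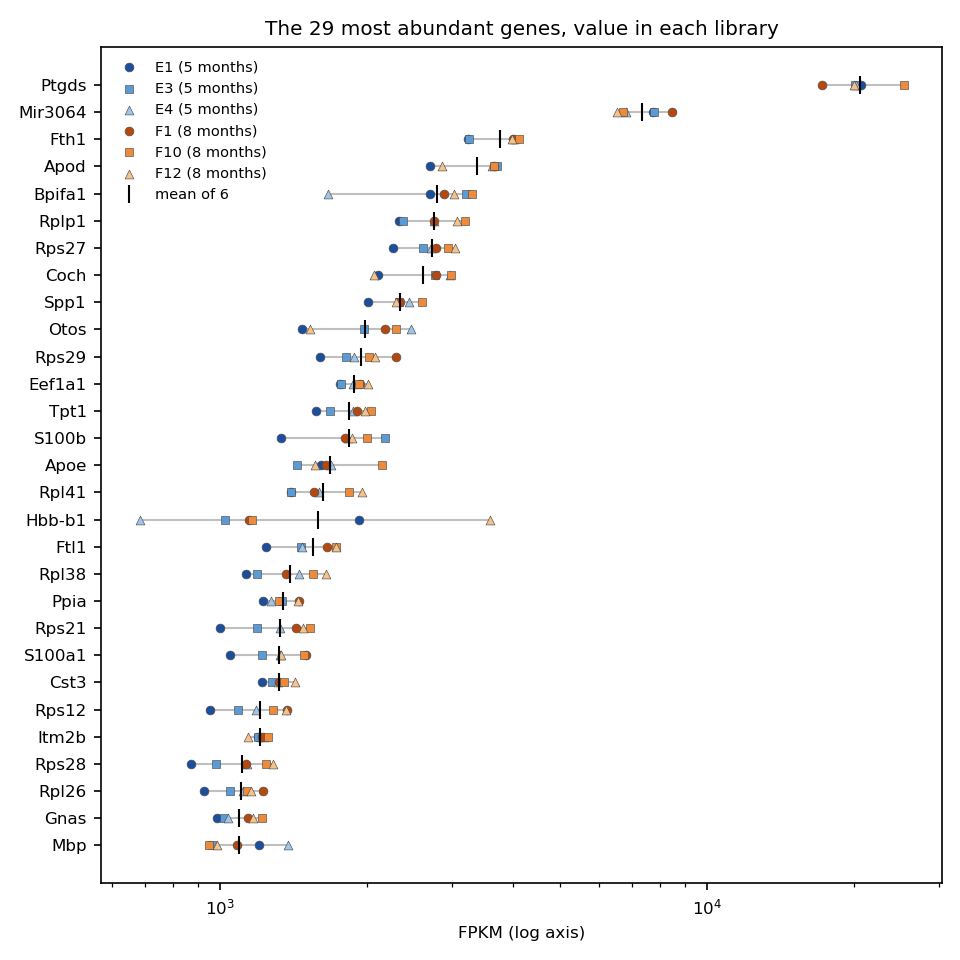
FPKM (log axis) of the 29 most abundant genes, ordered by mean, a point for each of the 6 libraries, a grey line from the lowest to the highest and a black tick at the mean. Ptgds lies apart from all others, F12 stands alone for Hbb-b1 with 3589 FPKM, and E4 stands alone for Bpifa1 with 1664 FPKM.

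The second place belonged to a microRNA gene, Mir3064, with 7339 ± 771 FPKM between 6532 and 8471. It occupies 67 bases at chr11:106644007-106644073 on the minus strand, lies within Ddx5 on the same strand and shares 1 base with an exon of it. At an assumed fragment length of 200 ± 80 bases, a gene of 67 bases leaves 1.068 start places for a fragment, so the FPKM of 7339 corresponded to an estimated 161 reads per library. Ddx5, an RNA helicase, had 439.5 ± 35.0 FPKM from an estimated 29846 reads. Reads from the host transcript and from the microRNA hairpin cannot be told apart in these values, and the value is not a measure of the mature microRNA. The mature sequences are shown because they identify the product that the gene is named for; they were taken from RefSeq annotation of GRCm38.p6, and capitals mark the seed, bases 2 to 8.
mmu-miR-3064-5p: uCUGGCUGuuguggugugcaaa
mmu-miR-3064-3p: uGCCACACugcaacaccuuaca

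Other short genes rested on few reads and were often at 0. The table held 1243 genes under 300 bases, of which 363 averaged 1 FPKM or more and 25 averaged 100 FPKM or more, and together they held 3.495% to 4.301% of summed FPKM. Of the 363, 267 (73.6%) lay inside another gene on the same strand and 287 were at 0 in at least 1 library. Snord37, a small nucleolar RNA gene in an intron of Eef2, had 259 FPKM in E1, 160 FPKM in E4 and 0 in the other 4 libraries. Mir6236 at 659 ± 194 FPKM and Snord104 at 632 ± 157 FPKM were, with Mir3064, the short RNA genes among the first 100.

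Apart from these, the first 100 genes were mostly those of the general machinery of cells. Cytosolic ribosomal protein genes filled 10 of the first 30 places and 40 of the first 100. The 89 genes of the family held 10.3% ± 0.743 of summed FPKM, from 9.12% in E1 to 11.1% in F12, and 79 of them reached 100 FPKM, with levels from 117.1 to 2745 FPKM (Rplp1) and a median of 635 FPKM. The median coefficient of variation, CV, of those 79 genes over the libraries was 10.9%. Nuclear genes of oxidative phosphorylation, whose products build the respiratory chain and the ATP synthase, held 4.56% ± 0.428 with 96 genes, of which 76 reached 100 FPKM and 10 were among the first 100, led by Ndufa4 at 868 ± 100.4 FPKM and Atp5b at 857 ± 90.3 FPKM.

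Smaller families followed. Translation factors held 1.68% ± 0.0294 of summed FPKM, ferritins and metallothioneins 1.18% ± 0.084, actins, tubulins and thymosins 0.985% ± 0.0517, and glycolytic enzymes 0.825% ± 0.0315. The S100 family held 0.983% ± 0.247, with 1.45% in F12 against 0.755% to 0.974% in the others, and globins held 0.519% ± 0.361, from 0.216% in E4 to 1.19% in F12. Collagens held 0.183% ± 0.0286, and of 44 collagen genes 3 reached 100 FPKM. No gene of the mitochondrial genome was in the table, so its transcripts were not part of any share.

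The sequence around the start of the abundant genes was read from the mm9 genome at the annotated starts, from 60 bases before to 20 bases after the start, on the strand of the gene. Windows are shown for some of the first 30 genes, both leading genes of the tissue and genes of the ribosome and translation. They include all 4 of the first 30 that have TATAAA, so they do not show how common it is. Fth1, Spp1 and Rps29, which have neither motif, are not shown. Capitals mark TATAAA within 50 bases before the start, or a pyrimidine run. Such a run has at least 6 pyrimidines (C or T) and begins with C within 10 bases of the start. The first 4 have TATAAA, and Rps28 has both.
Apod, chr16:31314663-31314742, minus strand: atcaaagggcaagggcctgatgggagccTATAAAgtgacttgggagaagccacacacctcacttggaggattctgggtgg
Bpifa1, chr2:153968556-153968635, plus strand: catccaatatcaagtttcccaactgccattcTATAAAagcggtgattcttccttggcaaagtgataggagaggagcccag
Ppia, chr11:6315813-6315892, plus strand: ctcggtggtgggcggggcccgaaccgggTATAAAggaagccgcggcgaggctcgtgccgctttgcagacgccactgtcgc
Rps28, chr17:33961424-33961503, minus strand: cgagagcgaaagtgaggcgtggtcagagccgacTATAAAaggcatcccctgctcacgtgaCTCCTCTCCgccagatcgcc
Rps27, chr3:90017551-90017630, minus strand: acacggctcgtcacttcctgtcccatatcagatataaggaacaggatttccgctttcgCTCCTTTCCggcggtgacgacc
Eef1a1, chr9:78329512-78329591, minus strand: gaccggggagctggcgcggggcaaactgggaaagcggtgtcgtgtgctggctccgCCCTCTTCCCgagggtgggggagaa
Ptgds, chr2:25325250-25325329, minus strand: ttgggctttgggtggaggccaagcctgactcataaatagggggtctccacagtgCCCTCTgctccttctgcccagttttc
Coch, chr12:52694268-52694347, plus strand: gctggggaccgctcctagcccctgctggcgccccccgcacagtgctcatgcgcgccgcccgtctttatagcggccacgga
Otos, chr1:94545399-94545478, minus strand: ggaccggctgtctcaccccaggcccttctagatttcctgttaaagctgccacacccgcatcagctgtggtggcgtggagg

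The pyrimidine run is the pattern known from genes of the translation machinery, whose messenger RNAs begin with it. It was found in 37 of the 79 ribosomal protein genes of at least 100 FPKM (46.8%), in 33 of the 100 most abundant genes (33%) and in 18.8% of the windows of all 23892 genes with a start. Among the 60 of the first 100 genes that were not ribosomal, 14 (23.3%) had the run. TATAAA was found in 9 of the first 100 genes (9%), in 8 of those 60 (13.3%), in 1 of the 79 ribosomal genes (1.27%), in 1.69% of the 15073 genes of at least 1 FPKM and in 3.13% of all 23892. Both motifs were searched on the strand of the gene only. These are matches of letters at annotated starts and were not set against any measurement of the starts used in the cochlea.

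To describe which cells the RNA represented, 31 lists naming 530 marker genes were summed, of which 40 genes stood in more than 1 list. Some lists share their most abundant gene, so sums were read within a list over libraries rather than as shares of cells. For scale, the median of all 23951 gene means was 4.043 FPKM, and the median among genes of at least 1 FPKM was 11.89 FPKM. Of all genes, 62.9% reached a mean of 1 FPKM, 35.0% reached 10 FPKM and 3.26% reached 100 FPKM. The counts of each list are to be read beside these shares.

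The lateral wall list of fibrocytes and otospiralin summed to 8537 ± 1147 FPKM, of which Coch made up 30.6%. All 25 genes reached 1 FPKM, 12 reached 100 FPKM, and the median of the list was 83.0 FPKM. After Coch and Otos came Dcn, the matrix proteoglycan decorin, with 738 ± 113.6 FPKM, and Car3, a carbonic anhydrase that adipocytes and muscle also make, with 721 ± 150 FPKM. Pou3f4, a transcription factor of the ear mesenchyme whose loss causes deafness, had 43.1 ± 10.02 FPKM.

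The connexins of the potassium-recycling network were dominated by a pair. Gjb2 had 302, 398 and 387 FPKM in E1, E3 and E4 and 364, 448 and 326 FPKM in F1, F10 and F12. Gjb6 had 277, 338 and 345 FPKM in E1, E3 and E4 and 311, 381 and 287 FPKM in F1, F10 and F12. The products of these genes assemble into the gap junctions of supporting cells and fibrocytes, and Gjb2 exceeded Gjb6 in each library by a ratio between 1.089 and 1.178. Of the 15 connexin genes listed, 9 reached 1 FPKM and 3 stayed under 0.1 FPKM, and the next in level was Gja1 with 44.0 ± 7.89 FPKM.

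In the stria vascularis, the marginal cell list summed to 1111 ± 98.7 FPKM, the basal cell list to 1125 ± 119 FPKM and the intermediate cell list to 746 ± 103 FPKM. Marginal cells pump potassium, and the sodium-potassium pump subunit Atp1b2 had 302 ± 29.8 FPKM, the cotransporter Slc12a2 had 147 ± 17.0 FPKM, and the apical channel subunits Kcne1 and Kcnq1 had 39.4 ± 8.39 FPKM and 17.7 ± 3.40 FPKM. The intermediate cells, which are melanocytes, were represented by Dct of melanin synthesis with 184 ± 37.3 FPKM, by the glutathione transferase Gsta4 with 291 ± 40.2 FPKM and by the potassium channel Kcnj10 with 49.7 ± 6.21 FPKM. Cldn11, the tight junction protein of basal cells, had 194 ± 23.6 FPKM, and Slc26a4, the anion exchanger pendrin, had 83.0 ± 16.4 FPKM.

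The hair cell list summed to 1330 ± 114 FPKM. Its median of 4.719 FPKM lay near that of all genes. The marginal, intermediate and basal cell lists had medians of 11.51, 17.28 and 43.97 FPKM. Of the 40 hair cell genes, 34 reached 1 FPKM, 11 reached 10 FPKM, and 2 reached 100 FPKM. Those 2 were Calb2, calretinin, with 605 ± 103.5 FPKM and Pvalb, parvalbumin, with 363 ± 87.9 FPKM, calcium buffers that neurons also make. Ocm, oncomodulin of outer hair cells, had 46.9, 65.0 and 74.8 FPKM in E1, E3 and E4 and 65.5, 65.3 and 61.6 FPKM in F1, F10 and F12. It was the most abundant gene of the outer hair cell list and was lowest in E1.

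Genes for the specialised functions of hair cells spanned a wide range of levels. Myo6, an unconventional myosin at the base of the hair bundle, had 32.0 ± 2.71 FPKM, and Otof, the calcium sensor of transmitter release, had 9.28 ± 2.69 FPKM. Slc17a8, which loads glutamate into the vesicles of inner hair cells, had 3.92 ± 0.805 FPKM, the myosin Myo7a 3.89 ± 1.03 FPKM, and Tmc1, of the mechanotransduction channel, between 2.64 and 4.48 FPKM. Slc26a5, prestin, the motor of outer hair cells, had 1.89, 2.09 and 2.72 FPKM in E1, E3 and E4 and 1.68, 1.72 and 1.73 FPKM in F1, F10 and F12, on an estimated 178 reads per library. The tip link genes Cdh23 and Pcdh15 had 1.04 ± 0.178 and 1.04 ± 0.174 FPKM. At the low end was Atoh1, the transcription factor that starts hair cell differentiation, with 0.144 ± 0.121 FPKM on an estimated 5.66 reads. The 5 hair cell genes highest per length, Calb2, Pvalb, Ocm, Cib2 and Tbx2, thus did not include prestin, Tmc1 or otoferlin.

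The 24 supporting cell genes had a median of 23.99 FPKM, and S100a1, which other cells also make, led the list. Fbxo2, the F-box subunit of a ubiquitin ligase long known for its abundance in the organ of Corti (chr4:147534777-147540526, plus strand), had 675, 896 and 1023 FPKM in E1, E3 and E4 and 1135, 1399 and 969 FPKM in F1, F10 and F12. Skp1a, which encodes its partner in that ligase (chr11:52045497-52060360, plus strand), had 1030 ± 146 FPKM. The means of the 2 genes differed by less than their SDs, with a ratio of Fbxo2 to Skp1a of 0.987 that ran from 0.796 to 1.313 over the libraries.

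Tectorial membrane genes summed to 603 ± 101 FPKM, and all 14 reached 1 FPKM. Ceacam16, a secreted component of the membrane, led with 274 ± 56.5 FPKM between 213 and 347, followed by Col11a2 with 117 ± 21.3 FPKM, which cartilage also expresses. The tectorins Tecta and Tectb, made mainly while the membrane is built, had 4.08 ± 0.894 and 4.53 ± 1.46 FPKM. Otog, otogelin, had 19.5, 22.7 and 20.2 FPKM in E1, E3 and E4 and 17.1, 38.6 and 15.7 FPKM in F1, F10 and F12, so that F10 lay above the rest.

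Spiral ganglion neurons and their glia were represented by abundant genes. The neuron list summed to 4538 ± 209 FPKM, between 4357 and 4927, and all 41 genes reached 1 FPKM with a median of 40.0 FPKM. Snap25, of the vesicle fusion machinery, had 604 ± 59.4 FPKM, the neurofilament subunits Nefl, Nefh and Nefm had 310.5 ± 50.7, 139 ± 22.1 and 129.6 ± 17.9 FPKM, and Slc17a7, the vesicular glutamate transporter of these neurons, had 77.6 ± 5.54 FPKM. Prph, peripherin, found in the neurons that contact outer hair cells and in other peripheral neurons, had 24.1 FPKM in E4 and 42.5 to 89.1 FPKM in the other libraries.

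The list of Schwann and satellite glia summed to 5640 ± 478 FPKM, with all 25 genes at 1 FPKM or more. After S100b and Mbp, the myelin gene Pmp22 had 501 ± 59.6 FPKM. Of the 25 genes, 18 were highest in E4 (72%), against 12.7% of 14710 genes of at least 1 FPKM and 300 bases. Other lists moved with it in E4, where 10 of 17 oligodendrocyte genes (58.8%), 11 of 20 osteoblast and osteocyte genes (55%) and 8 of 14 pericyte and smooth muscle genes (57.1%) were highest, and their part in the glial values was not tested. Mog, a marker of oligodendrocytes, had 9.12 ± 2.63 FPKM and Gfap, of astrocytes and some other glia, had 70.1 ± 16.6 FPKM, and both were highest in E4. Of the 20 genes listed for neurons of brain and brainstem 13 reached a mean of 1 FPKM, as did 62.9% of all genes. Some did so through E1 alone. Gabra6 had 43.0 FPKM in E1 and at most 0.266 FPKM elsewhere, and Slc32a1 had 10.4 FPKM against at most 0.102 FPKM. Pvalb, which the ear also makes, led the list, followed by Calb1 at 30.9 ± 28.9 FPKM and Zic1 at 22.9 ± 22.0 FPKM. Slc6a5 and Neurod6 were at 0.162 and 0.156 FPKM. Without Pvalb the list summed to 425 FPKM in E1 and to 50.1 to 69.5 FPKM in the other 5 libraries.

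The bony capsule, its vessels and its resident cells were represented as well. The osteoblast and osteocyte list summed to 4063 ± 332 FPKM, of which Spp1, a gene not restricted to bone, made up 57.5%, and to 1726 ± 242 FPKM without it. Sparc, a bone matrix protein, had 499 ± 40.8 FPKM and Bglap, osteocalcin, had 249.5 ± 53.6 FPKM, a gene with near-identical copies whose reads may be split among them. Osteoclast genes summed to 356 ± 47.3 FPKM, with Car2 at 155 ± 23.9 FPKM and Ctsk, the protease that dissolves bone collagen, at 73.5 ± 7.40 FPKM. Endothelial genes summed to 484 ± 33.8 FPKM, pericyte and smooth muscle genes to 302 ± 29.4 FPKM, and chondrocyte genes to 402 ± 54.7 FPKM, led by Lect1 at 163 ± 28.3 FPKM. Macrophage genes summed to 1107 ± 164 FPKM, led by Cd74 of antigen presentation at 296 ± 53.6 FPKM. Their sum was 1402 FPKM in F12 and 946.5 to 1164 FPKM in the other libraries. Of the 21 genes, 16 were highest in F12 (76.2%), against 18.6% of 14710 genes of at least 1 FPKM and 300 bases. The part of blood and marrow cells in these values was not tested.

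Genes of blood and marrow cells varied between libraries. The red cell list summed to 3680, 1949 and 1424 FPKM in E1, E3 and E4 and to 2151, 2357 and 7017 FPKM in F1, F10 and F12. The neutrophil list summed to 653, 736 and 100.2 FPKM in E1, E3 and E4 and to 986, 734 and 4749 FPKM in F1, F10 and F12, a 47.4-fold range. B cell genes summed to 37.7 to 54.1 FPKM in 5 libraries and to 123.8 FPKM in F12. All 3 lists were lowest in E4 and highest in F12, and the mean of the neutrophil list was 1326 FPKM with F12 and 642 FPKM without it, while that of the red cell list was 3096 and 2312 FPKM.

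**Figure D3:**
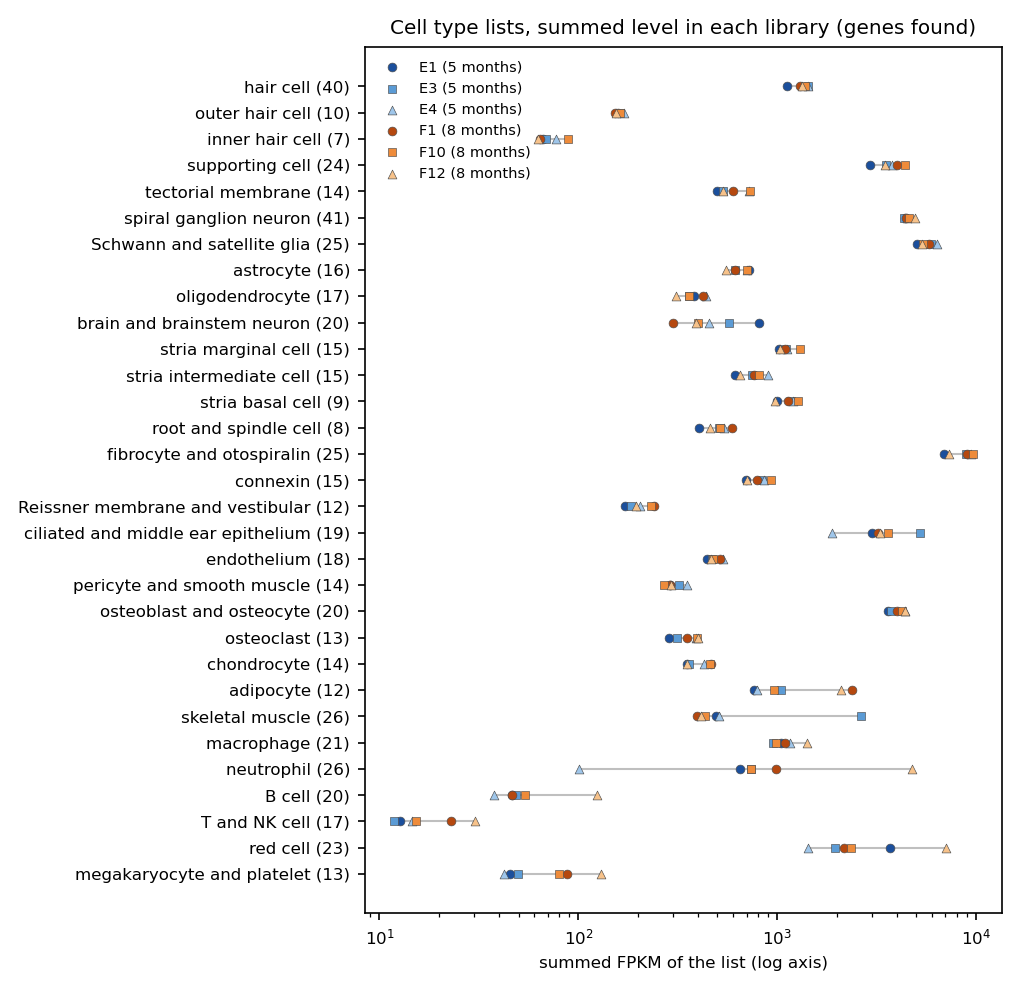
Summed FPKM (log axis) of 31 cell type lists, with the number of genes found in parentheses, a point for each of the 6 libraries and a grey line from the lowest to the highest. The spiral ganglion neuron list spans 4357 to 4927 FPKM and the neutrophil list 100.2 to 4749 FPKM.

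Genes known from inherited deafness were mostly detected. Of 128 in the list 120 were in the table, 110 of these reached 1 FPKM, as did 62.9% of all genes, and 7 reached 100 FPKM: Coch, Actg1, Gjb2, Gjb6, Ceacam16, Col11a2 and Serpinb6a. The median of the 120 was 10.9 FPKM. Actg1, the gamma actin of hair bundles and of every other cell, had 888 ± 57.0 FPKM. At the other end, Dspp was under 0.1 FPKM.

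Antioxidant and pump genes were abundant throughout. All 33 antioxidant genes reached 1 FPKM, as did 62.9% of all genes. Of the 33, 15 reached 100 FPKM, as did 3.26% of all genes, and the median was 82.6 FPKM. Below the ferritins, Gpx3, the secreted glutathione peroxidase, had 612 ± 90.7 FPKM, Sod1, the cytosolic superoxide dismutase, had 586 ± 64.8 FPKM, and Gpx4, which reduces lipid peroxides, had 495 ± 70.4 FPKM. Prdx1, a peroxiredoxin that removes hydrogen peroxide, had 304 ± 41.8 FPKM. Of the 16 plasma membrane pump genes 10 reached 100 FPKM, against 3.26% of all genes, led by Atp1b1 with 580 ± 21.5 FPKM. The circadian regulators summed to 473 ± 44.6 FPKM, with Nr1d1, a repressor within the clock, at 80.3 ± 5.71 FPKM. The immediate early genes summed to 345 ± 31.5 FPKM, with 399.9 FPKM in E1 as the highest and 304 FPKM in E4 as the lowest.

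The libraries resembled each other for most genes. Over the 15073 genes of at least 1 FPKM the median CV was 10.7%, with quartiles at 7.25% and 17.4%. The highest value was less than 1.5 times the lowest in 10550 genes (70.0%). In 792 (5.25%) it was at least 4 times the lowest, or the lowest was 0. Of these 792, 287 were genes under 300 bases that were at 0 in at least 1 library. Across all 23951 genes, including the 3901 at 0 in every library, Spearman's rho between 2 libraries ran from 0.965 to 0.973 over the 15 pairs. This describes libraries that share a tissue, a protocol and a depth.

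The spread was lowest for genes of middling abundance. For genes of at least 300 bases the median CV was 14.4% at 1 to 10 FPKM (6532 genes), 8.49% at 10 to 100 FPKM (7422 genes), 9.79% at 100 to 1000 FPKM (723 genes) and 13.8% at 1000 FPKM and over (33 genes). Counting error alone, from the estimated reads, had medians of 6.58%, 2.86%, 1.43% and 0.692% in the same order. The 363 genes under 300 bases had a median CV of 131%.

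**Figure D4:**
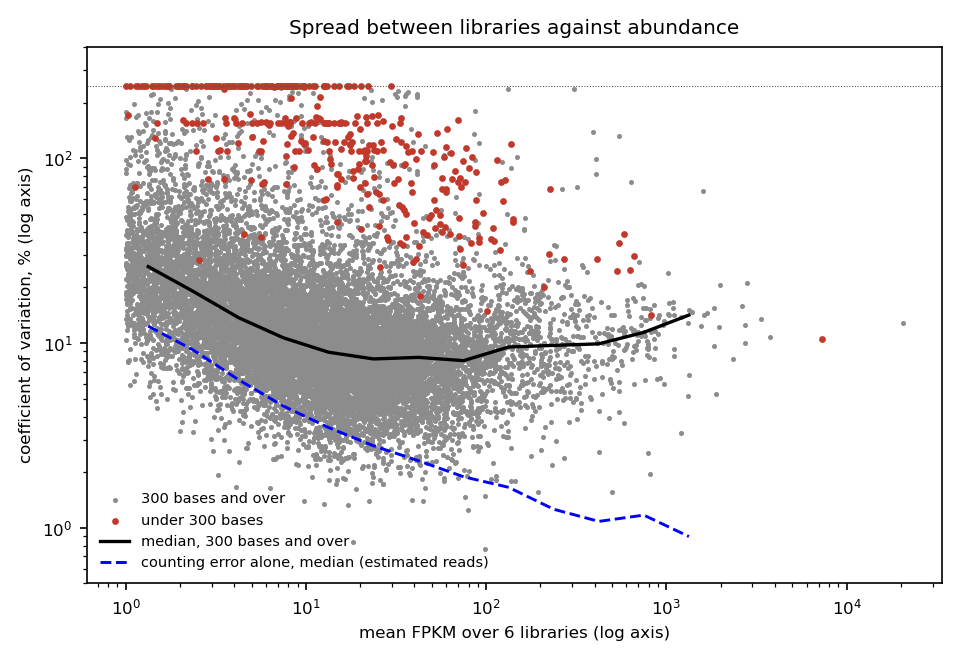
Coefficient of variation over the 6 libraries (%, log axis) against mean FPKM (log axis) for genes of at least 1 FPKM, grey for genes of 300 bases and over and red for shorter genes, with the median as a black line, the counting error alone as a dashed blue line and the highest value 6 libraries allow as a dotted line. The black line lies above the dashed line throughout, and the short genes lie mostly above both, at a median of 131%.

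Among 1854 genes that averaged 50 FPKM or more, the steadiest was Tmem147, a membrane protein of the endoplasmic reticulum, with 97.5 to 99.6 FPKM and a CV of 0.769%. The 10 steadiest genes were Tmem147, Vapa, Psmd2, Uba1, Atp6v0c, Ap2m1, Ppp2r1a, Vcp, Stx12 and Pcbp2, with CVs up to 1.81%. They include a proteasome subunit, Psmd2, the ubiquitin-activating enzyme Uba1, and subunits of the proton pump, of the endocytic adaptor and of protein phosphatase. Atp6v0c, the pump subunit, was the most abundant of them with 499 ± 7.75 FPKM. The reference gene Gapdh had a CV of 3.93% at 478 ± 18.8 FPKM, and Actb had 8.63% at 783 ± 67.6 FPKM.

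Of the 20 genes of that abundance with the widest spread, 10 were under 300 bases. The others were Bpifb1, Lipf, Lyz1 and Wfdc18, which are secreted by airway, gastric or glandular epithelium, S100a9, Ngp, S100a8 and Camp of neutrophils, and Cidea and Cfd of adipocytes. Bpifb1 had a CV of 236%, S100a8 of 132% and Cidea of 106%.

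Genes of other tissues stood apart in single libraries. Among 14710 genes of at least 1 FPKM and 300 bases, 59 were at least 4-fold above every other library in E1, 44 in E3, 33 in F12, 1 each in F1 and F10, and 0 in E4. In the opposite direction, 15 genes were at least 4-fold below every other library in E4, and 0 to 6 in each of the others. The genes named here for this were chosen after their values were seen.

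Of the 59 genes in E1, 7 belonged to the list for neurons of brain and brainstem, 1 to the immediate early list and 51 to none of the lists. Pcp2, a marker of Purkinje cells, had 186 FPKM in E1 and at most 2.03 FPKM in the other 5 libraries. Gabra6, a receptor subunit of cerebellar granule cells, had 43.0 FPKM in E1 and at most 0.266 FPKM elsewhere, and Gad1, of inhibitory neurons, had 41.9 FPKM against 1.98 to 4.65 FPKM. The brain neuron list summed to 810 FPKM in E1 and 298 to 573 FPKM in the others, and 13 of its 20 genes (65%) were highest in E1, as were 13 of 16 astrocyte genes (81.2%), against 22.9% of 14710 genes. Values of genes that brain and ganglion share, such as Calb1 with 88.2 FPKM in E1 and 8.18 to 28.1 FPKM elsewhere, moved with these markers, and the part of the markers in them was not tested. Fos, the immediate early gene, was also apart in E1, with 33.9 FPKM against 3.15 to 6.76 FPKM.

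Of the 44 genes in E3, 16 belonged to the skeletal muscle list, 1 to the list for ciliated and middle ear epithelium, and 27 to none of the lists. Bpifb1, a relative of Bpifa1, had 1782 FPKM in E3, 54.7 FPKM in F1 and at most 1.604 FPKM in the other 4 libraries. Lipf, gastric lipase, had 771 FPKM in E3 and at most 23.7 FPKM elsewhere, and Lyz1 had 403 FPKM against 13.7 to 34.2 FPKM. The muscle genes Acta1, Mylpf and Ckm had 228, 223 and 207 FPKM in E3 and at most 9.32, 8.24 and 5.11 FPKM elsewhere. The muscle list summed to 2619 FPKM in E3 and to 392.4 to 506.9 FPKM in the others. Its mean was 809 FPKM with E3 and 447.5 FPKM without E3. Pvalb made up 44.9% of that sum. Without Pvalb the muscle list summed to 2110 FPKM in E3 and to 92.5 to 144.6 FPKM in the others. Pvalb, listed for hair cells, neurons and muscle alike, was 509 FPKM in E3 and 248 to 388 FPKM elsewhere.

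In F12 and E4 genes of blood cells stood apart, in opposite directions. S100a8 and S100a9, which form calprotectin of neutrophils, had 1998 and 1497 FPKM in F12, 24.8 and 20.7 FPKM in E4, and 271 to 427 and 175 to 236 FPKM in the other 4. Of the 33 genes in F12, 7 were on the neutrophil list, 8 on the red cell list, 4 on the B cell list and 14 on none. Of the 15 low genes in E4, 9 were on the neutrophil list and 6 on none. The share of globins in summed FPKM was also highest in F12 and lowest in E4, while that of the S100 family was highest in F12 and lowest in E1.

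In both F1 and F12, 52 genes were at least 2-fold above the other 4 libraries, of which 8 belonged to the adipocyte list of 12 genes, 5 to the neutrophil list, and 38 to none of the lists. Fabp4, a fatty acid carrier of adipocytes, had 935 and 897 FPKM in F1 and F12 against 78.5 to 241 FPKM. Ucp1, the uncoupling protein of brown fat, had 134 and 86.8 FPKM against 3.99 to 21.8 FPKM, and Adipoq, adiponectin, had 73.2 and 73.0 FPKM against 8.70 to 22.3 FPKM. Car3, counted above in the fibrocyte list, had 894 FPKM in F1 and 840 FPKM in F12, and 491 to 791 FPKM elsewhere.

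**Figure D5:**
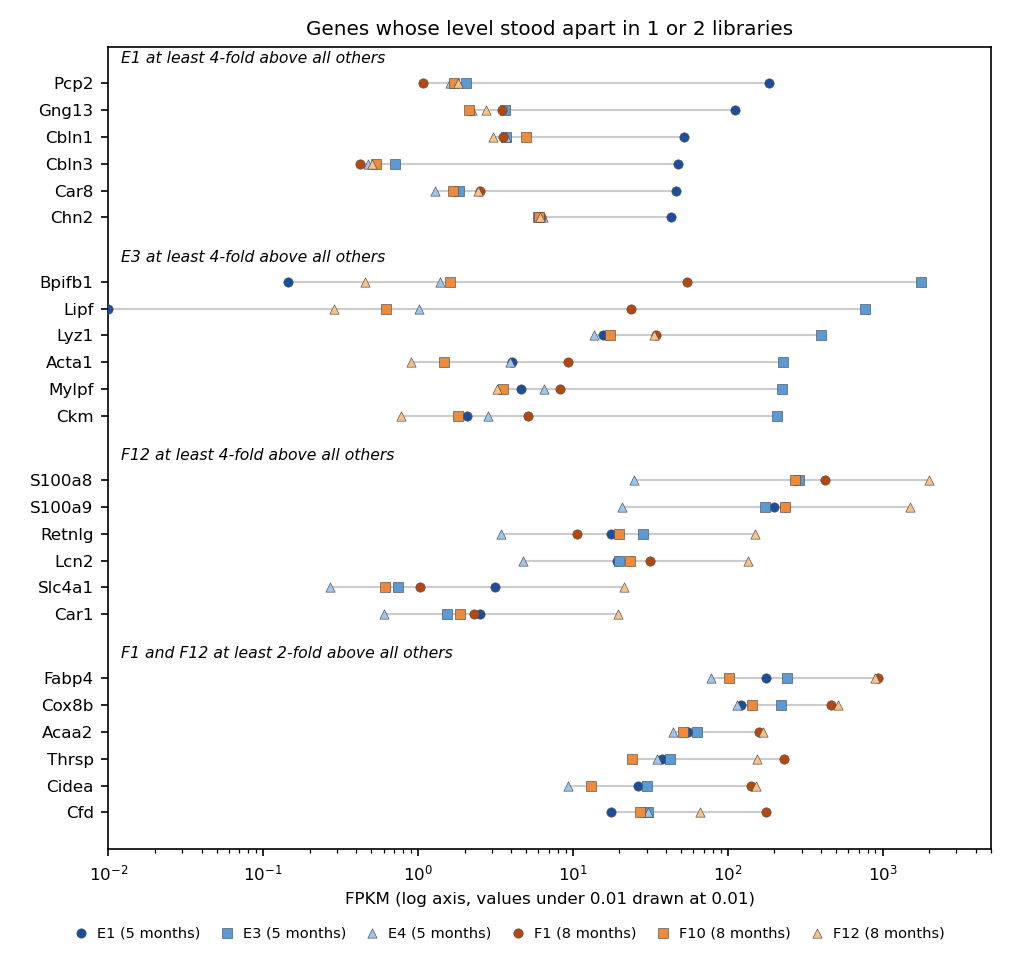
FPKM (log axis, values under 0.01 drawn at 0.01) of the 6 most abundant genes by level in each of 4 sets, at least 4-fold above all other libraries in E1, E3 or F12, or at least 2-fold above the other 4 in both F1 and F12, a point for each library. Pcp2 lies at 186 FPKM in E1 and at or below 2.03 FPKM elsewhere, and Bpifb1 at 1782 FPKM in E3.

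F10 stood apart in several lists. Of the 40 hair cell genes 26 were highest in F10 (65%, against 20.7% of 14710 genes), and their median ratio to the median of the other 5 libraries was 1.376, against 1.018 for all genes. Otof had 14.4 FPKM in F10 and 7.09 to 9.63 FPKM elsewhere, and Pou4f3, a transcription factor that hair cells need to survive, had 8.78 FPKM against 4.13 to 4.93 FPKM. Slc26a5 did not follow, with 1.72 FPKM in F10. In the same library 13 of 15 marginal cell genes and 10 of 14 tectorial membrane genes were highest, as were 10 of 19 genes for ciliated and middle ear epithelium (52.6%). The shorter outer hair cell list did not share this, with 2 of 10 genes (20%) highest in F10.

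Genes known from the vestibule moved with them in F10. Nox3, an oxidase needed for otoconia, had 12.3 FPKM in F10 and at most 2.35 FPKM elsewhere, Oc90, of the otoconia, had 1.21 FPKM against at most 0.261 FPKM, and Zpld1 had 2.47 FPKM against at most 0.338 FPKM. Other genes of that kind were not highest there: Otop1 had 7.59 FPKM in F10, its lowest value, and Vmo1 had 168 FPKM in F10 and 199 FPKM in F1. The part of vestibular cells in the hair cell values of F10 was not tested.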

How the data were processed

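Per the labels and the study's methods, the authors checked reads with FastQC 0.10.1, aligned them to mm9 with TopHat2 2.0.10, Bowtie 1.0.0 and SAMtools 0.1.19, and estimated FPKM with Cufflinks 2.2.1. The deposited FPKM per library had lost decimal points in 55.2% of 143706 values, which were restored so that the mean of each group matched the group FPKM that the authors deposited, to a tolerance of 2e-05. All 47902 gene and group pairs had a single solution, 280 values under 0.0001 were set to 0, and 18 names turned into dates were restored. The authors' fold changes, p-values and gene set files were not used. Genes were ranked by mean FPKM with no pseudocount, filter or test (Python 3.11.15, pandas 2.3.3), with scripts tested on simulated data. Reads were estimated from the step of low values in genes of 1 transcript of at least 2000 bases. Genes and lists were chosen with earlier results of these data known. By rule the text names the 30 most abundant genes, the 3 most abundant of each list, list members under 0.1 FPKM, and the 20 widest and 10 steadiest genes of at least 50 FPKM, and those at ranks 100 and 1000, though not each of them is described, and other names were added after values were seen. In the mm9 genome used for promoters, 22135 of 22183 annotated start codons (99.78%) read ATG. Alternatives were the median, rescaling to the same sum, multiplication by length, short genes or blood cell genes left out, each age alone, a stricter limit, each library left out, and, added later, E1, E3 and F12 left out together. Some members of these lists are not reported here.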

Additional observations from a re-analysis of the deposited data

Results flagged for a closer look

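Summed lists, family shares and named genes were examined for a library whose gap to its nearest neighbour, as a share of the range of the 6, passed Dixon's critical value, which chance gives in about 1 in 20 sets. This held for 7 of 80 sets (8.75%), which share libraries and genes. In F12 the neutrophil list summed to 4749 FPKM (median of the 6 libraries 735.2), the B cell list to 123.8 FPKM (median 47.6), and the S100 family held 1.453% of summed FPKM (median 0.950%), of which S100a8 and S100a9 of neutrophils are members. In E3 the skeletal muscle list, with Pvalb included, summed to 2619 FPKM (median 462.3). In F10 the stria marginal cell list summed to 1296 FPKM (median 1099) and Apoe had 2151 FPKM (median 1632). In E4 Bpifa1 had 1664 FPKM (median 2949), the sole value of the 7 that lay below its group.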

How the results depend on the processing

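No paired analysis was possible because the result comes from no test. Leaving out each library in turn gave 9.317% to 9.671% for the share of the first 10 genes (9.527% with all 6), 24.84% to 25.42% for the first 100 (25.12%), 14989 to 15103 genes of at least 1 FPKM (15073), a median CV of 9.775% to 10.93% (10.66%), and 29 to 30 of the 30 leading genes. Without genes under 300 bases the share of the first 10 was 8.852%. Multiplied by transcript length, which removes the correction for length, it was 5.183%, the share of the first 100 was 15.3%, and 14 of the 30 leading genes remained. For genes of at least 10 FPKM the median CV was 8.706%. Rescaling each library to the same sum of 1000000 raised the values, so 16041 genes passed the limit of 1 instead of 15073. For genes that passed this limit the median CV was then 11.61%. Without rescaling it was 8.465% and 9.062% for the libraries of 5 and 8 months alone. Without E1, E3 and F12, an alternative chosen after seeing the data, it was 9.267%. Each of the last 3 values rests on 3 libraries. The median of a sample SD falls with fewer samples, so they cannot be set directly against 10.66%. The cause of these shifts was not tested. Of 12 families, 12 moved by more than 1 SD with multiplication by length and 4 without short genes, and of 38 lists 32 moved with multiplication by length and 36 with rescaling, which changes the unit. Leaving out libraries cannot pass that limit, so ratios were used. The neutrophil list fell from 1326 to 642 FPKM without F12. The skeletal muscle list, with Pvalb included, fell from 809 to 447.5 FPKM without E3. Without E1, E3 and F12 together these lists were at 606.9 and 443.7 FPKM, the red cell list fell from 3096 to 1977 FPKM and the globin share from 0.519% to 0.312%. No other family or list moved by over 1.5 times when 1 library, or E1, E3 and F12 together, was left out. The libraries of each age alone were not examined for this. Depth limited genes under about 1 FPKM and those of few bases. A fragment length was assumed, so estimated reads of genes near that length are uncertain.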

Other observations

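The libraries differed in genes of the sex chromosomes. Xist, the RNA that silences an X chromosome in females, had 52.4 FPKM in E4 and 49.4 FPKM in F1 and at most 0.0935 FPKM in the other 4 libraries. Ddx3y, on the Y chromosome, had at most 0.0131 FPKM in E4 and F1 and 22.3 to 28.9 FPKM in the others. Both ages thus held libraries of each pattern, and the ages were not compared.

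Some genes known from pain-sensing neurons, chosen after their values were seen and not from a list, were low in E4. The sodium channel Scn10a had 0.361 FPKM in E4 and 2.36 to 10.7 FPKM elsewhere, Scn11a had 0.280 FPKM against 1.29 to 6.04 FPKM, and the neuropeptide gene Calcb had 0.448 FPKM against 2.17 to 8.30 FPKM. All 3 were highest in F12. They are known from sensory ganglia of the head and body, and Slc17a7 of spiral ganglion neurons, at 74.5 FPKM in E4 and 68.2 to 83.0 FPKM elsewhere, did not share the pattern.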
